A study of Mus with 18 samples.

Results

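Genes of collagens and other extracellular matrix proteins were followed by RNA-seq in mouse muscle and in libraries labelled as a muscle cell line. The list holds 40 genes, chosen by gene symbol and not by any measured value, and 38 of them had a row among the 21401 symbols of both expression tables. Col6a3 and Col12a1 were not analysed here. The 38 genes comprise 7 fibrillar collagen chains, 3 fibril-associated and other collagens, 2 chains of collagen VI, 10 basement membrane genes, 6 matricellular and adhesive glycoproteins, 4 small leucine-rich proteoglycans, 2 elastic fibre genes and 4 lysyl oxidases.

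The extracellular matrix of skeletal muscle has a basement membrane around each fibre and capillary, built on networks of collagen IV and laminin, and an outer interstitial matrix of fibrillar collagens. Fibroblasts and fibro-adipogenic progenitors are known as main producers of the interstitial fibrillar collagens, while endothelial cells, pericytes and muscle cells also produce basement membrane components. Collagen VI links the basement membrane to the interstitial fibrils, small leucine-rich proteoglycans coat the fibrils, and lysyl oxidases cross-link collagen and elastin.

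The study examined whether MIC-1 (moringa isothiocyanate-1, from seeds of Moringa oleifera) changes the response of muscle to LPS, the bacterial lipopolysaccharide that sets off inflammation. All 18 libraries were labelled wild type, with 3 libraries in each of 6 groups. The muscle libraries came from the gastrocnemius of male C57BL/6 mice, from which fat and connective tissue had been trimmed. Control mice were labelled as given saline vehicle, whereas the study's text names DMSO by mouth for them. LPS-treated mice received LPS at 10 mg/kg intraperitoneally, and LPS-MIC-1-treated mice received the same dose of LPS after daily gavage of MIC-1 at 80 mg/kg in 10% DMSO for 3 days, with tissue taken 16 h after LPS. The other libraries were labelled C2C12, a line of mouse myoblasts that fuse into muscle fibres in culture. They were labelled as saline control, LPS at 1 μg/mL, and 10 μM MIC-1 with 1 μg/mL LPS for 24 h, whereas the study's text names a lower MIC-1 concentration for the cell transcriptomes and an ethanol vehicle. No group received MIC-1 without LPS. Neither source names a gavage or DMSO for the LPS mice, so effects of MIC-1 and of its vehicle and gavage cannot be told apart in the comparison of LPS-MIC-1 with LPS muscle. The labels do not say that replicates came from separate cultures, and p-values measure the spread between the deposited samples.

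Values were FPKM (fragments per kilobase of transcript, scaled to the mapped fragments of a library), which allow levels of different genes to be compared per length. Depth is not stated, so it was estimated from the steps between low values. The muscle libraries came out at 0.986 to 1.1 times the depth of control replicate 1. The C2C12 libraries came out at 0.467 to 1.03 times that of their own control replicate 1. Within a group, the most common ratio to replicate 1 held 20.0 to 29.6% of the genes compared, so these depths are rough. Ratios between groups carry no such share. The shallowest by this estimate was C2C12 LPS-MIC-1 replicate 3. Across genes, log2 values of replicates correlated with r from 0.936 to 0.989 in C2C12 and from 0.949 to 0.962 in muscle. The test was limma on log2(FPKM + 0.1), for the 10877 genes in C2C12 and 9475 in muscle whose mean exceeded 1 FPKM. A gene was called at a Benjamini-Hochberg adjusted p under 0.05 in muscle, or 0.001 in C2C12, with an absolute log2 difference over 1. The comparisons within an experiment share their libraries.

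Marker genes were set against the labels. In the libraries labelled C2C12 control and C2C12 LPS, 10 myogenic markers summed to 0.136 to 0.408 FPKM and to 0.301 to 2.43 FPKM, whereas in the LPS-MIC-1 libraries they summed to 843 to 1101 FPKM. The 12 macrophage markers went the other way, with sums of 10072 to 10137, 6857 to 7060 and 78.4 to 264 FPKM. The libraries labelled C2C12 control and C2C12 LPS thus lacked the defining markers of the labelled line, and every comparison of the LPS-MIC-1 libraries with them is also a comparison of libraries that differ in these markers. Muscle libraries held high fibre markers in all groups, with 10 genes summing to 149549 to 203780 FPKM.

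In muscle, the 38 matrix genes held 0.0494 ± 0.00128% of all FPKM in control (SD, n = 3, as for all values after ±). Their share was 0.0457 ± 0.00122% in LPS, and 0.0511 ± 0.000538% in LPS-MIC-1. Their summed level was 362 ± 11.7, 329 ± 5.56 and 337 ± 14.4 FPKM. The classes divided this sum differently between groups. Fibrillar collagens made up 15.2 ± 0.532% of it in control and 16.1 ± 0.102% in LPS, against 6.61 ± 0.233% in LPS-MIC-1, while basement membrane genes made up 30.1 ± 1.10%, 26.9 ± 0.428% and 36.2 ± 0.562%. Small leucine-rich proteoglycans made up 24.7 ± 0.149%, 29.9 ± 0.513% and 39.8 ± 1.34%. These shares are descriptions without a test. In bulk tissue, fewer cells of a type and less RNA per cell cannot be told apart.

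**Figure D1:**
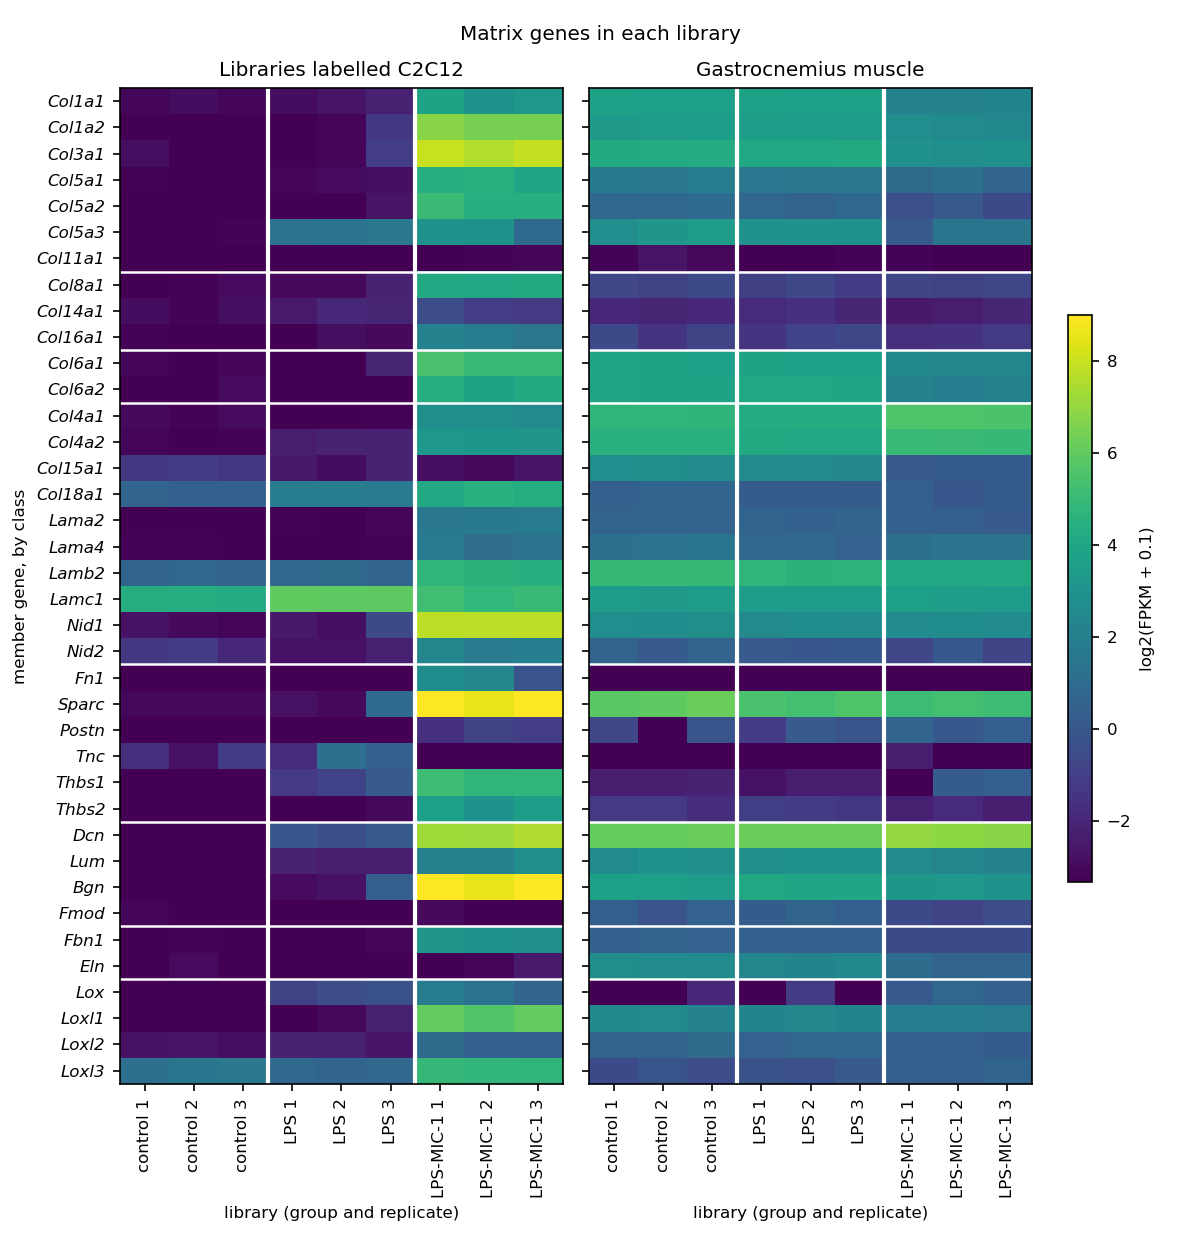
Level of each of the 38 matrix genes (rows, grouped by class) in each of the 18 libraries (columns), as log2(FPKM + 0.1) on a colour scale, with the libraries labelled C2C12 on the left and muscle on the right. Most rows on the left are bright only in the 3 LPS-MIC-1 libraries, whereas on the right the fibrillar collagen rows are darker and the Col4a1 row is brighter in LPS-MIC-1 than in the other 6 libraries.

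Of the 38 genes, 25 passed the filter in muscle and 13 did not. None of the 25 passed only through a single group's level. The order of levels in control muscle was led by Dcn with 69.4 ± 2.89 FPKM and Sparc with 63.6 ± 8.05 FPKM, which did not differ beyond their spread, followed by Lamb2 with 30.5 ± 0.405, Col4a1 with 26.2 ± 0.596 and Col4a2 with 22.5 ± 0.206 FPKM. In LPS-MIC-1 muscle the order was Dcn with 120 ± 7.91, Col4a1 with 47.8 ± 1.44, Sparc with 36.5 ± 2.85, Col4a2 with 32.6 ± 1.86 and Lamb2 with 17.0 ± 0.341 FPKM. The ranges of these neighbours did not overlap there.

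No matrix gene was called between LPS and control muscle, where calls were rare over all genes. Against control, 0 of the 25 tested members were called higher and 0 lower, where 0.654% and 0.591% of all tested genes were called in those directions by limma. No member's difference exceeded the fold threshold at an unadjusted p either. An adjusted p under 0.05 at any fold change, a rule chosen after seeing the data, was passed by 1 member that was higher and 5 that were lower, against 8.25% and 7.48% of all tested genes. Groups did not overlap for 3 higher and 9 lower members, against 18.8% and 17.7% of all tested genes. The 5 lower members were Col4a1, Col4a2, Lama4, Lamb2 and Sparc, of which the first 4 are basement membrane genes. The median log2 difference was -0.29 over the 9 tested basement membrane genes, -0.13 over the 6 tested fibrillar collagens and 0.01 over all tested genes.

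Col4a1 and Col4a2 encode the most widespread chains of collagen IV and are read from neighbouring genes. Col4a1 had 26.7, 26.2 and 25.5 FPKM in the control libraries and 18.9, 18.9 and 19.1 FPKM in the LPS libraries. The groups did not overlap, and the log2 difference was -0.46 (SE 0.0366, adjusted p = 0.000137). Col4a2 had 22.6, 22.3 and 22.7 FPKM in control and 17.6, 16.6 and 16.3 FPKM in LPS, again without overlap, with a log2 difference of -0.42 (SE 0.0518, adjusted p = 0.00122). Lama4, a laminin chain of blood vessels, averaged 2.43 ± 0.229 FPKM in control and 1.58 ± 0.171 FPKM in LPS (log2 difference -0.59, adjusted p = 0.0176). Lamb2, a laminin chain of the synaptic and vascular basement membrane, went from 30.9, 30.3 and 30.2 FPKM to 26.2, 23.8 and 24.9 FPKM (log2 difference -0.29, adjusted p = 0.00334). Sparc, which encodes a collagen-binding matricellular protein, had 57.3, 60.7 and 72.7 FPKM in control and 44.7, 39.8 and 48.7 FPKM in LPS. Its groups also did not overlap, and its log2 difference was -0.51 (SE 0.107, adjusted p = 0.0143). The gene that was higher was Bgn (biglycan), with 12.9, 12.4 and 11.3 FPKM in control and 16.4, 15.0 and 15.0 FPKM in LPS (log2 difference 0.34, adjusted p = 0.0241). Over the alternative settings the adjusted p reached 0.0844 for Bgn and 0.0610 for Lama4, so neither held under all of them.

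The 8 endothelial markers summed to 93.4 to 97.9 FPKM in control muscle and to 59.0 to 63.7 FPKM in LPS muscle, with 0 of 7 tested called in either direction. Cdh5, the cadherin of endothelial junctions, averaged 31.2 ± 1.10 and 18.9 ± 0.736 FPKM. The 5 adipocyte markers, of which 2 were tested and 0 called, summed to 288 to 294 FPKM in control and to 220 to 244 FPKM in LPS. Most of that sum was Fabp4, a fatty acid carrier of adipocytes and capillary endothelium. Both sums were lower in the same libraries as Col4a1, Col4a2 and Lama4, and their part in the result was not tested.

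In the comparison of LPS-MIC-1 with LPS muscle, interstitial collagens were lower and collagen IV was higher. Of 25 tested members, 1 was called higher and 8 lower, where 9.67% and 5.44% of all tested genes were called. The member called higher was Col4a1, and the members called lower were Col1a1, Col3a1, Col5a3, Col6a1, Col6a2, Col15a1, Fbn1 and Eln. By adjusted p at any fold change, 4 members were higher and 15 lower, against 28.3% and 28.2% of all tested genes. The groups did not overlap for 5 members that were higher and 18 that were lower, against 32.5% and 31.7% of all tested genes. The median log2 difference was -0.55 over the 25 members and -0.01 over all tested genes.

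Among the fibrillar collagens, all 6 that were tested had lower values in every LPS-MIC-1 library than in any LPS library. Their median log2 difference was -1.09. Col1a1, the major chain of collagen I, had 13.1, 12.3 and 12.8 FPKM in the LPS libraries and 4.33, 4.43 and 4.54 FPKM in the LPS-MIC-1 libraries. The log2 difference was -1.50 (SE 0.0537, adjusted p = 1.14e-07). Its partner chain Col1a2 went from 11.6, 11.6 and 11.1 FPKM to 6.43, 5.88 and 5.25 FPKM and did not reach the fold threshold (log2 difference -0.96, SE 0.0803, adjusted p = 1.88e-05). Col3a1, the chain of collagen III, had 16.8, 16.1 and 17.9 FPKM in LPS and 7.53, 6.99 and 7.18 FPKM in LPS-MIC-1 (log2 difference -1.21, SE 0.0569, adjusted p = 5.67e-07).

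The 3 chains of collagen V, which sets fibril diameter, were lower to unequal extents. Col5a3 had 7.36, 7.98 and 7.09 FPKM in LPS and 1.02, 2.64 and 2.62 FPKM in LPS-MIC-1. It fell by 1.90 on the log2 scale (SE 0.343, adjusted p = 0.00166), and LPS-MIC-1 replicate 1 was the lowest. Col5a2, the neighbour of Col3a1, averaged 1.55 ± 0.113 and 0.753 ± 0.207 FPKM (log2 difference -0.97, adjusted p = 0.00336) and was not called. Col5a1 averaged 2.85 ± 0.0698 and 1.85 ± 0.356 FPKM (log2 difference -0.61, adjusted p = 0.00673) and was not called. Control muscle was close to LPS muscle for these collagens. The 6 control means lay between 1.72 and 18.4 FPKM, with log2 differences of LPS against control from -0.17 to 0.08.

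**Figure D2:**
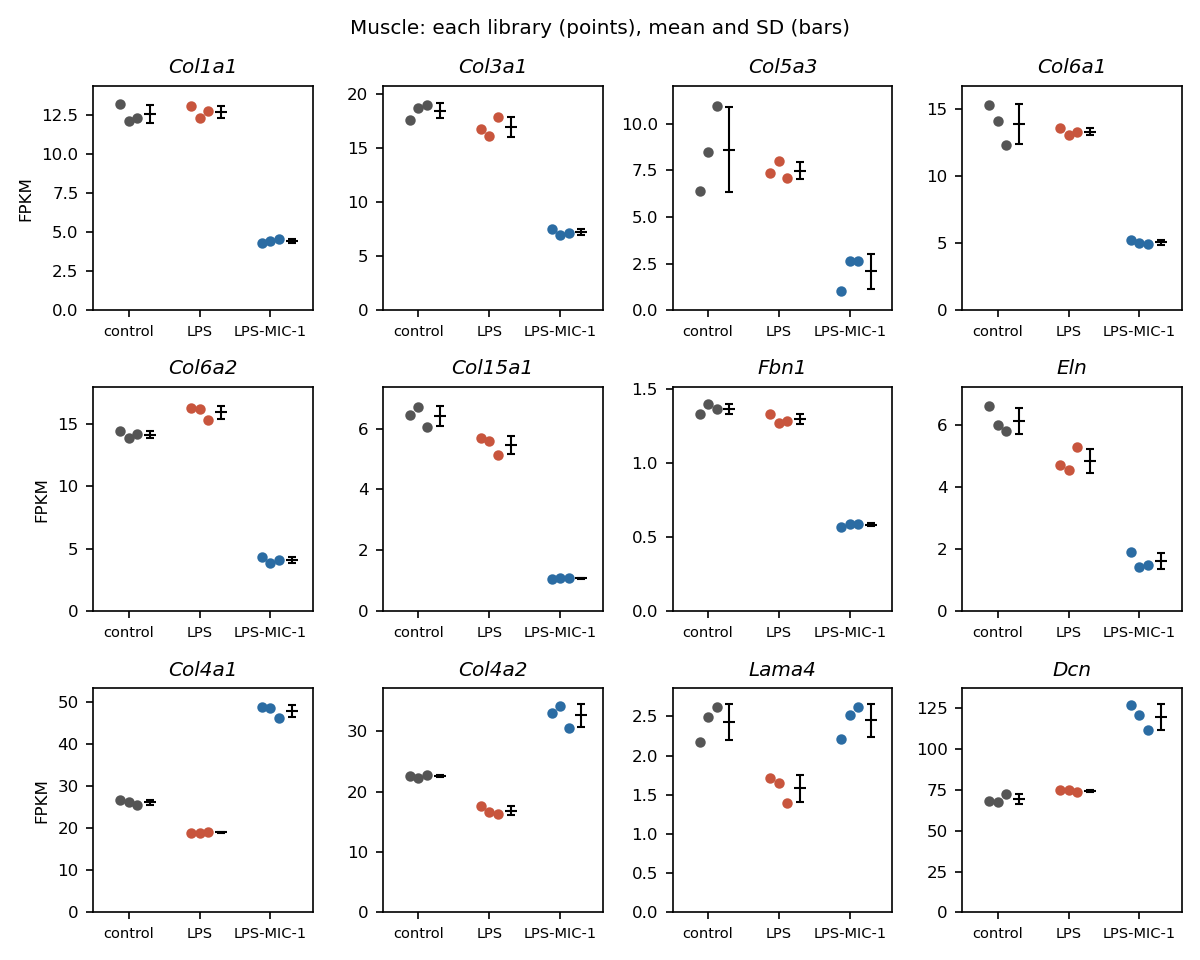
FPKM of 12 matrix genes in muscle, with 1 point per library, the mean and SD as a bar beside the points, and linear axes from 0. The 8 genes from Col1a1 to Eln have all 3 LPS-MIC-1 points below every control and LPS point, while Col4a1, Col4a2 and Dcn have them above.

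Collagen VI was lower in both of its chains with a row. Col6a1 had 13.6, 13.1 and 13.3 FPKM in LPS and 5.26, 5.02 and 4.94 FPKM in LPS-MIC-1 (log2 difference -1.38, SE 0.0778, adjusted p = 1.68e-06). Col6a2 had 16.3, 16.2 and 15.4 FPKM in LPS and 4.38, 3.86 and 4.12 FPKM in LPS-MIC-1 (log2 difference -1.93, SE 0.0580, adjusted p = 4.06e-08). Both genes lie next to each other and encode chains of the same heterotrimer. The elastic fibre genes were also lower. Eln (elastin) had 4.71, 4.56 and 5.30 FPKM in LPS and 1.92, 1.44 and 1.51 FPKM in LPS-MIC-1 (log2 difference -1.53, SE 0.12, adjusted p = 1.26e-05). Fbn1 (fibrillin-1), the core of microfibrils, went from 1.33, 1.27 and 1.28 FPKM to 0.572, 0.588 and 0.592 FPKM (log2 difference -1.03, SE 0.158, adjusted p = 0.000675), a call that a pseudocount of 1 ended (log2 difference -0.53).

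The basement membrane genes divided. Of 9 tested, 1 was called higher and 1 lower, and their median log2 difference was 0.06. Col4a1 had 48.8, 48.4 and 46.1 FPKM in the LPS-MIC-1 libraries, against 18.9, 18.9 and 19.1 FPKM in LPS, with a ratio of means of 2.52 (log2 difference 1.33, SE 0.0366, adjusted p = 2.35e-08). Col4a2 had 33.0, 34.2 and 30.6 FPKM, above its LPS values in every library, and stood just under the fold threshold (log2 difference 0.95, SE 0.0518, adjusted p = 1.38e-06). Lama4 had 2.22, 2.52 and 2.62 FPKM, above all LPS libraries (log2 difference 0.60, adjusted p = 0.00406) and close to control.

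Col15a1 and Lamb2 moved opposite to collagen IV. Col15a1, which encodes a basement membrane collagen at the border to the interstitial matrix, had 5.68, 5.58 and 5.14 FPKM in LPS and 1.07, 1.11 and 1.09 FPKM in LPS-MIC-1. It fell by 2.23 on the log2 scale (SE 0.0768, adjusted p = 9.36e-08), the largest fall among the 25 tested members in this comparison. Lamb2 had 26.2, 23.8 and 24.9 FPKM in LPS and 16.7, 17.2 and 17.3 FPKM in LPS-MIC-1 (log2 difference -0.55, adjusted p = 1.34e-05). The remaining basement membrane genes differed little. Nid1 (nidogen-1, a linker of laminin and collagen IV) averaged 5.89 ± 0.423 and 6.13 ± 0.101 FPKM, and Col18a1 1.12 ± 0.0236 and 1.10 ± 0.190 FPKM. Lama2, the main laminin alpha chain of muscle fibres, had 1.47, 1.31 and 1.55 FPKM in LPS and 1.29, 1.24 and 1.07 FPKM in LPS-MIC-1, and none of these genes passed the adjusted p. Lamc1 (laminin gamma 1) averaged 11.1 ± 0.264 and 11.8 ± 0.488 FPKM, with a log2 difference of 0.09 (adjusted p = 0.170) that quantile normalization turned to -0.04.

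Among proteoglycans, Dcn (decorin) had 75.1, 74.6 and 73.9 FPKM in LPS and 127, 121 and 111 FPKM in LPS-MIC-1 (log2 difference 0.68, SE 0.0513, adjusted p = 9.61e-06). Its neighbour Lum (lumican) went from 6.88, 7.10 and 7.68 FPKM to 5.79, 4.77 and 4.38 FPKM (log2 difference -0.54, adjusted p = 0.00471). Bgn fell from 16.4, 15.0 and 15.0 FPKM to 9.15, 9.45 and 7.98 FPKM (log2 difference -0.80, adjusted p = 5.55e-05). Decorin and biglycan are close relatives that bind collagen, and the ratio of Dcn to Bgn was 5.72 ± 0.620 in control and 4.84 ± 0.218 in LPS, against 13.5 ± 0.653 in LPS-MIC-1.

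Ratios between partner chains differed between the groups as well. The ratio of Col4a1 to Col4a2 was 1.16 ± 0.0315 in control and 1.13 ± 0.0496 in LPS, against 1.47 ± 0.0480 in LPS-MIC-1. The ratio of Col1a1 to Col1a2 was 1.17 ± 0.122, 1.11 ± 0.0464 and 0.764 ± 0.0964 in the same order. That of Col6a1 to Col6a2 was 0.983 ± 0.101, 0.837 ± 0.0282 and 1.23 ± 0.0599. Within a library these ratios do not depend on the scaling between libraries, and they were not tested.

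Sparc had 44.7, 39.8 and 48.7 FPKM in LPS and 35.3, 39.7 and 34.4 FPKM in LPS-MIC-1 (log2 difference -0.28, adjusted p = 0.0517), so its lower level did not pass the test. Of the lysyl oxidases, Loxl1 went from 4.79 ± 0.286 to 3.63 ± 0.298 FPKM (log2 difference -0.39, adjusted p = 0.0109), and Loxl2 averaged 1.51 ± 0.145 and 1.16 ± 0.0677 FPKM (adjusted p = 0.0784). Neither reached the fold threshold.

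**Figure D3:**
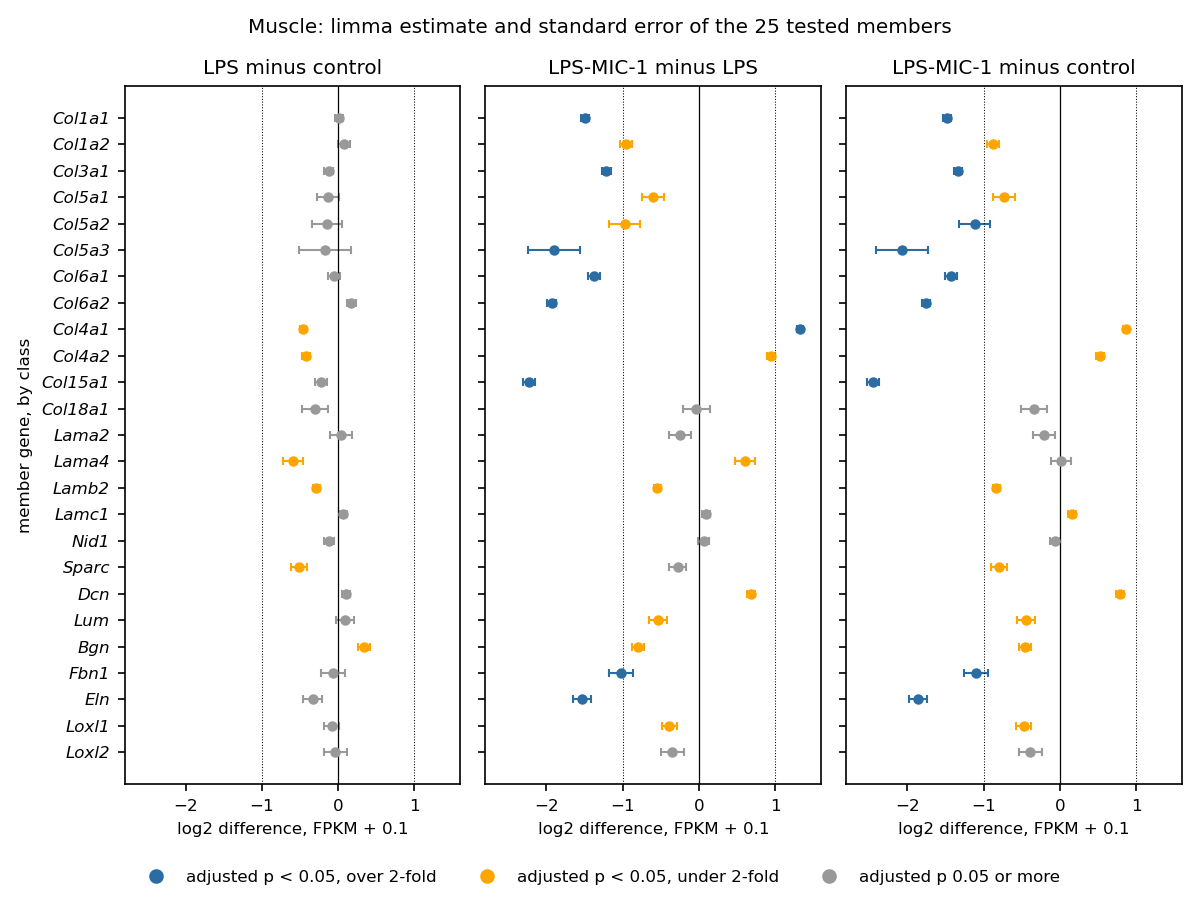
Differences in log2(FPKM + 0.1) estimated by limma for the 25 tested members in muscle, with standard errors as bars, for LPS minus control, LPS-MIC-1 minus LPS and LPS-MIC-1 minus control. Blue points pass the adjusted p of 0.05 and the log2 difference of 1 marked by dotted lines, orange points pass the adjusted p only, and grey points pass neither. No point is blue in the left panel, and Col4a1 is the blue point on the positive side of the middle panel.

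Compared with control muscle, LPS-MIC-1 muscle had 0 members called higher and 9 called lower, where 9.33% and 6.12% of all tested genes were called. The 9 were the 8 that were lower than in LPS and Col5a2. By adjusted p at any fold change, 4 were higher and 16 lower, against 30.0% and 28.5% of all tested genes. Groups did not overlap for 4 higher and 19 lower members, against 33.4% and 31.1% of all tested genes. Col15a1 had 6.44, 6.71 and 6.06 FPKM in control and differed by -2.45 on the log2 scale (SE 0.0768, adjusted p = 4.64e-08). Eln had 6.63, 6.00 and 5.81 FPKM in control (log2 difference -1.86, adjusted p = 3.66e-06), and Col5a2 had 1.68, 1.61 and 1.87 FPKM in control against 0.718, 0.976 and 0.565 FPKM in LPS-MIC-1 (log2 difference -1.12, SE 0.201, adjusted p = 0.00153). The call for Col5a2 was lost without LPS-MIC-1 replicate 3 (log2 difference -0.95) and with a pseudocount of 1. Col4a1 (log2 difference 0.87, adjusted p = 2.87e-07), Col4a2 (0.53, adjusted p = 4.47e-05) and Dcn (0.79, adjusted p = 3.88e-06) were higher than in control in every library without reaching the fold threshold. The fourth by adjusted p was Lamc1 (log2 difference 0.16, adjusted p = 0.0335), a difference that was 0.02 under quantile normalization. Lamb2 (log2 difference -0.83) and Sparc (-0.80, adjusted p = 0.000292) were lower than in control.

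Markers of several cell types also differed in LPS-MIC-1 muscle. The 10 fibroblast and fibro-adipogenic markers, none of them a member, summed to 105 to 116 FPKM in control and 95.7 to 120 FPKM in LPS, against 129 to 143 FPKM in LPS-MIC-1. Of these markers, 1 was called higher and 4 lower against LPS. The 3 most abundant of them are named by level and not by call. Gsn averaged 35.6 ± 5.49 FPKM in LPS and 62.9 ± 8.47 FPKM in LPS-MIC-1, and Ly6a 17.4 ± 7.85 and 42.9 ± 3.14 FPKM. Clec3b went the other way, with 12.9 ± 0.630 and 4.98 ± 1.38 FPKM. Endothelial markers summed to 96.6 to 112 FPKM in LPS-MIC-1, close to control and above LPS, with 2 of 7 tested called higher than in LPS. Against control, 1 was called higher and 1 lower, so the sum joins markers that went different ways. Cdh5 averaged 22.0 ± 1.88 FPKM in LPS-MIC-1, below its control mean of 31.2 FPKM. Cldn5 averaged 31.5 ± 2.47 FPKM, above its control mean of 10.2 FPKM. Adipocyte markers summed to 323 to 351 FPKM, above control and LPS, with 0 of 2 tested called against LPS and 1 called higher against control. Smooth muscle and pericyte markers summed to 73.7 to 83.9 FPKM, against 99.6 to 104 in LPS, and fibre markers to 149549 to 161871 against 190840 to 194347. Tendon markers summed to 8.21 to 9.87 FPKM, against 8.34 to 10.3 FPKM in LPS.

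Sums of blood cell markers stood higher. Neutrophil markers summed to 13.1 to 17.9 FPKM in LPS-MIC-1 and to at most 0.910 FPKM in the other muscle libraries. Macrophage markers summed to 36.1, 35.3 and 193 FPKM in LPS-MIC-1 replicates 1 to 3, against at most 26.8 FPKM in LPS. Lyz2, a lysozyme gene of macrophages, reached 78.3 FPKM in replicate 3. In replicates 1 and 2 it had 5.27 and 3.93 FPKM, below its LPS values of 8.31, 9.65 and 8.93 FPKM. Without LPS-MIC-1 replicate 3, 1 member was called higher and 9 lower against LPS, beside 855 and 561 of the 9439 genes then tested. Against control, 0 members were called higher and 8 lower, beside 840 and 608 of those genes. The part of these markers in the matrix results was not tested.

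The 13 members under the filter in muscle were low throughout. Nid2 had 0.985 ± 0.0869 FPKM in LPS and 0.660 ± 0.258 FPKM in LPS-MIC-1, and Fmod (fibromodulin) 1.28 ± 0.190 and 0.557 ± 0.116 FPKM. Lox, the founding lysyl oxidase, was listed at 0, 0.345 and 0 FPKM in LPS and had 1.02, 1.67 and 1.26 FPKM in LPS-MIC-1. Without the filter, Lox was called higher in LPS-MIC-1 than in LPS (adjusted p = 0.00528) and Fmod lower (adjusted p = 0.00801). Loxl3 averaged 0.818 and 1.34 FPKM, and Postn (periostin) 0.746 ± 0.374 and 1.22 ± 0.299 FPKM. Thbs1 (thrombospondin-1) had 0, 1.09 and 1.2 FPKM in the LPS-MIC-1 libraries and at most 0.130 FPKM elsewhere, so the LPS-MIC-1 libraries themselves ran from 0 to the highest value. Thbs2 averaged 0.348 and 0.133 FPKM, Col8a1 0.436 and 0.478, Col16a1 0.425 and 0.268, and Col14a1 0.181 and 0.110 FPKM. Col11a1 did not exceed 0.0583 FPKM in any muscle library and Tnc (tenascin-C) did not exceed 0.0939 FPKM. Fn1 (fibronectin) was listed at 0 in all 9 muscle libraries, which can be a failed estimate.

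Other genes of matrix and collagen assembly were read from lists that hold no member. Of 31 tested further matrix genes in muscle, 0 were called higher and 1 lower in LPS against control, beside 0.654% and 0.591% of all tested genes. Against LPS, LPS-MIC-1 had 3 higher and 8 lower, beside 9.67% and 5.44%, and against control 2 higher and 9 lower, beside 9.33% and 6.12%. The median log2 difference against LPS was -0.49. The named rise was Spp1 (osteopontin), with 0.421 ± 0.394 FPKM in LPS and 9.38 ± 10.5 FPKM in LPS-MIC-1, where replicate 3 stood far above the others. Spp1 was the 1 gene of the 31 that passed the filter only through LPS-MIC-1, so its calls are descriptions. Another 1 passed only through LPS. The named fall was Mfap2, a microfibril protein, with 2.84 ± 0.197 and 0.0815 ± 0.0791 FPKM (log2 difference -4.12, adjusted p = 1.63e-05). Cyr61, a matricellular gene, was the one called lower in LPS against control, with 13.7 ± 0.667 and 5.93 ± 0.286 FPKM (log2 difference -1.19, adjusted p = 6.74e-06).

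Of 19 tested collagen-processing genes in muscle, 0 were called between LPS and control. Against LPS, LPS-MIC-1 had 1 called higher and 2 called lower, with a median log2 difference of -0.10, beside the same 9.67% and 5.44% of all tested genes. Serpinh1, the collagen chaperone of the endoplasmic reticulum, had 44.9 ± 0.421 FPKM in control and 36.6 ± 1.78 FPKM in LPS, against 13.2 ± 0.619 FPKM in LPS-MIC-1. Against LPS it fell by 1.46 on the log2 scale (SE 0.0495, adjusted p = 8.13e-08). Adamts2, which removes the amino-terminal propeptide of fibrillar procollagens, had 1.14 ± 0.0726 FPKM in LPS and 5.95 ± 0.504 FPKM in LPS-MIC-1 (log2 difference 2.28, SE 0.142, adjusted p = 2.99e-06).

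In the libraries labelled C2C12, the matrix genes summed to 26.0 ± 0.172 FPKM in control and 77.6 ± 2.31 FPKM in LPS, against 2047 ± 240 FPKM in LPS-MIC-1, or 0.00473%, 0.0112% and 0.287% of all FPKM. Members with a mean over 1 FPKM numbered 4, 6 and 31 in the same order. Different classes held most of the sum. Basement membrane genes made up 88.6 ± 1.58% of the members' sum in control and 87.9 ± 4.01% in LPS, mostly Lamc1, but 15.7 ± 1.73% in LPS-MIC-1, where small leucine-rich proteoglycans made up 31.1 ± 1.00%, matricellular and adhesive genes 25.8 ± 2.15% and fibrillar collagens 18.8 ± 1.5%. The 10 fibroblast markers summed to at most 2.88 FPKM in the control and LPS libraries and to 538 to 730 FPKM in LPS-MIC-1. These, the macrophage and the myogenic markers differed between the same libraries, and their part in these differences was not tested.

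Of the 29 members tested in C2C12, 24 passed the filter only through the LPS-MIC-1 libraries. Counts over the tested members are therefore given as descriptions in all C2C12 comparisons. Col4a2, Dcn, Lox and Thbs1, which were called in LPS against control, were among these 24. The 5 others were Col5a3, Col18a1, Lamb2, Lamc1 and Loxl3. In LPS against control, 7 members were called higher and 0 lower, where 10.9% and 10.0% of all tested genes were called. Groups did not overlap for 11 higher and 2 lower members, against 39.4% and 40.1% of all tested genes. The median log2 difference was 0.44 over the 29 members and 0.00 over all tested genes. Lamc1, the laminin chain shared by most laminins, had 19.8, 19.6 and 19.2 FPKM in control and 64.0, 62.4 and 61.2 FPKM in LPS, with a log2 difference of 1.67 (SE 0.0805, adjusted p = 9.21e-07). Col18a1, the source of endostatin, had 1.51, 1.26 and 1.33 FPKM in control and 3.69, 3.50 and 3.41 FPKM in LPS (log2 difference 1.31, SE 0.123, adjusted p = 3.45e-05). Col5a3 was at 0, 0 and 0.00818 FPKM in control, against 2.44, 2.51 and 2.83 FPKM in LPS (adjusted p = 8.16e-05).

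Lamc1 and Col18a1 were measured above 1 FPKM in both groups, whereas the other calls rest on values listed at or near 0 in control, for which no fold is given. Dcn was at 0 in the 3 control libraries, against 0.931, 0.670 and 1.03 FPKM in LPS (adjusted p = 1.16e-06). Lox was also at 0 there, against 0.425, 0.663 and 0.721 FPKM in LPS (adjusted p = 7.31e-05). Thbs1 was again at 0 there, against 0.312, 0.458 and 1.06 FPKM in LPS (adjusted p = 0.000224), and Col4a2 averaged 0.00786 ± 0.00792 and 0.119 ± 0.0215 FPKM (adjusted p = 0.000299). With a pseudocount of 1, 1 of the 7 calls remained, which was Lamc1. Without the control replicates in turn, 5 members were called each time, and Col4a2 and Thbs1 were lost. Loxl3 had 2.18, 2.68 and 2.85 FPKM in control and 1.70, 1.46 and 1.68 FPKM in LPS (log2 difference -0.63, adjusted p = 0.00197) and was not called. Lamb2 averaged 1.49 and 1.63 FPKM with overlapping groups.

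**Figure D4:**
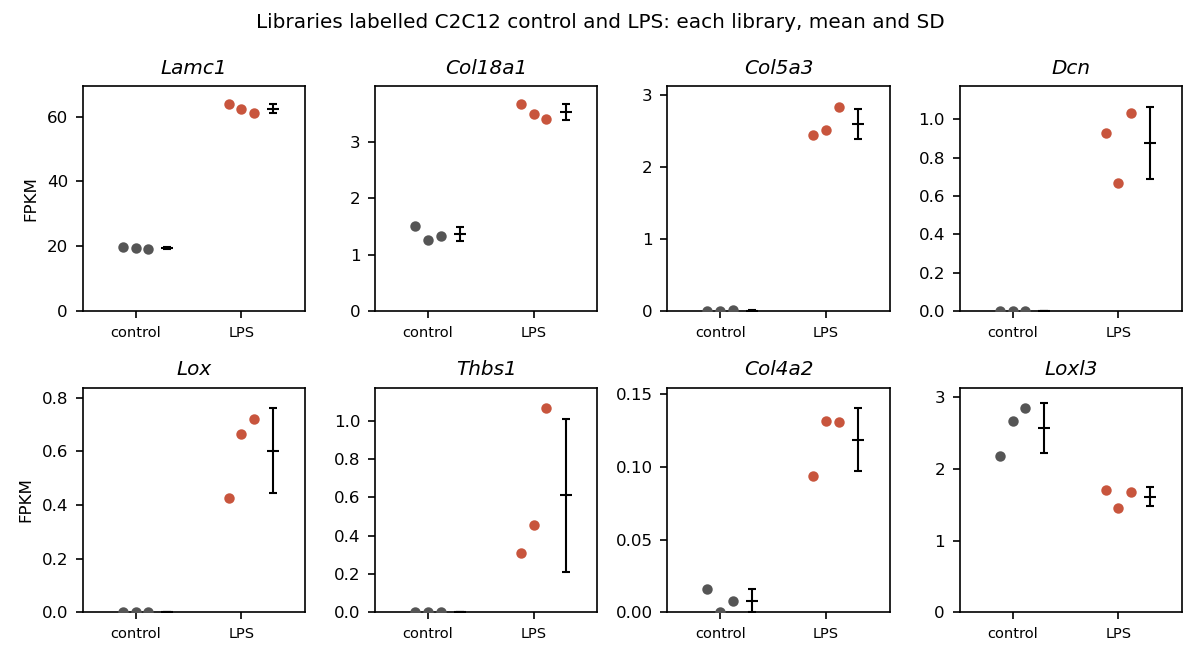
FPKM of 8 matrix genes in the libraries labelled C2C12 control and C2C12 LPS, with 1 point per library, the mean and SD as a bar beside the points, and linear axes from 0 that differ between genes. Lamc1 rises from about its control points near 19.5 to above 61 FPKM, 3 genes have all control points at 0, and Loxl3 is lower in LPS.

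LPS replicate 3 held more of several matrix transcripts than its replicates. For the 7 members with an LPS-MIC-1 mean over 50 FPKM, its level was 0.164 to 0.642% of that mean, with a median of 0.263%, against medians of 0.00561% in replicate 1 and 0.0122% in replicate 2. Sparc had 1.73 FPKM in LPS replicate 3 beside 0.0482 and 0.0242 FPKM, and Bgn had 1.24 FPKM beside 0.0264 and 0.0530 FPKM. Dcn was present in all 3 LPS libraries. Without LPS replicate 3, 6 members were called higher and 0 lower, beside 1016 and 993 of the 10909 genes then tested. Col4a2 was the call that was lost.

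In LPS-MIC-1 against LPS, 27 of 29 members were called higher and 0 lower, where 24.3% and 25.6% of all tested genes were called. By adjusted p at any fold change, Lamc1 was lower as well, giving 27 higher and 1 lower beside 32.8% and 33.7%, and the same numbers did not overlap beside 41.8% and 43.7%. In LPS-MIC-1 against control, 28 were higher and 0 lower, beside 21.1% and 22.1%, and 29 higher and 0 lower did not overlap beside 40.3% and 42.7%. The highest levels in LPS-MIC-1 belonged to Sparc, with 502, 384 and 573 FPKM, and to Bgn, with 517, 385 and 510 FPKM, and their ranges overlapped. In control they averaged 0.0201 and 0 FPKM. Col3a1 had 252, 191 and 238 FPKM and Nid1 had 220, 214 and 221 FPKM, which did not differ beyond their spread either. Dcn followed with 152, 148 and 184 FPKM, Col1a2 with 112, 89.2 and 87.6 FPKM and Loxl1 with 66.1, 50.2 and 65.0 FPKM. The chains of collagen I were unequal there, since Col1a1 had 14.3, 7.57 and 9.29 FPKM.

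The other members high in LPS-MIC-1 were spread over the classes. Col6a1 averaged 35.4 and Col6a2 17.9 FPKM, Thbs1 30.3 and Thbs2 10.6 FPKM, Loxl3 27.6 FPKM, Col5a2 25.7 and Col5a1 19.8 FPKM, and Col8a1 17.1 FPKM. Among basement membrane genes, Lamc1 averaged 32.4, Lamb2 24.1, Col18a1 19.9, Col4a2 8.82, Col4a1 6.59 and Lama2 3.08 FPKM. Fbn1 averaged 7.49, Lum 5.17, Nid2 4.08, Col16a1 3.54 and Lox 2.47 FPKM. In LPS, none of these except Lamc1, Lamb2, Col18a1 and Loxl3 averaged over 1 FPKM. The call of Lox against LPS held under 5 of the 14 alternatives in which it was tested. That of Fn1 held under 13 of 15. Both genes passed the filter only through the LPS-MIC-1 libraries, so these tallies are descriptions and no support.

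Lamc1 and Col5a3 were the members not called between LPS-MIC-1 and LPS. Lamc1 had 36.7, 28.9 and 31.4 FPKM in LPS-MIC-1, below all LPS libraries and above all control libraries (log2 differences -0.95, adjusted p = 7.71e-06, and 0.72, adjusted p = 5.30e-05). Leaving out LPS-MIC-1 replicate 1 took the first to -1.05 and made it a call. Col5a3 had 7.85, 7.93 and 1.77 FPKM, where the shallow replicate 3 was the lowest and overlapped LPS (log2 difference 0.87, adjusted p = 0.145), and without that replicate it was called (log2 difference 1.57, adjusted p = 1.08e-05). Fn1 was at 0 in the control and LPS libraries, against 6.32, 4.99 and 0.781 FPKM in LPS-MIC-1, where replicate 3 was again the lowest. The part of that library's depth in the Col5a3 and Fn1 values was not tested.

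The remaining members had too low a mean to be tested in C2C12. Tnc was listed at 0 in all 3 LPS-MIC-1 libraries, against 0.188, 2.18 and 1.26 FPKM in LPS, and Col15a1 averaged 0.309, 0.0801 and 0.0417 FPKM in control, LPS and LPS-MIC-1. Lama4 had 3.15, 2.04 and 2.29 FPKM and Loxl2 1.79, 1.28 and 1.18 FPKM in LPS-MIC-1, with no value over 0.130 FPKM in the other libraries. Col14a1 averaged 0.448 and Postn 0.333 FPKM in LPS-MIC-1. Col11a1, Fmod and Eln stayed at or under 0.0875 FPKM in all 9 libraries.

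Of the further matrix genes, 25 were tested in C2C12, and 19 of these passed the filter only through the LPS-MIC-1 libraries. Counts in all comparisons are therefore descriptions here too. In LPS against control, 4 were called higher and 0 lower, beside 10.9% and 10.0% of all tested genes. In LPS-MIC-1 there were 21 higher and 3 lower than in LPS, beside 24.3% and 25.6%, and 22 higher and 1 lower than in control, beside 21.1% and 22.1%. Vwa1, a basement membrane protein, averaged 0.222 and 1.35 FPKM in control and LPS (log2 difference 2.19, adjusted p = 0.000229). Cyr61 averaged 0.193 FPKM in LPS and 163 ± 3.16 FPKM in LPS-MIC-1. Spp1 averaged 1138 ± 11.8 FPKM in control and 18713 ± 201 FPKM in LPS, against 279 ± 433 FPKM in LPS-MIC-1. Col4a5, a collagen IV chain of other basement membranes, averaged 14.3, 10.6 and 0.345 FPKM in that order, so that it was highest where Col4a1 and Col4a2 were near 0.

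Of 23 tested collagen-processing genes in C2C12, 8 passed the filter only through the LPS-MIC-1 libraries, so all counts are again descriptions. In LPS against control, 2 were called higher and 1 lower, with the same shares of all tested genes as above. LPS-MIC-1 had 14 higher and 3 lower than LPS, beside 24.3% and 25.6% of all tested genes. Against control it had 14 higher and 2 lower, beside 21.1% and 22.1%. Sec23a, a coat protein of secretory vesicles, averaged 7.66 FPKM in control and 21.3 in LPS (log2 difference 1.46, adjusted p = 0.000161), and Glt25d1, a collagen galactosyltransferase, averaged 105 and 43.1 FPKM (log2 difference -1.28, adjusted p = 6.36e-07). Pcolce, an enhancer of procollagen cleavage, averaged 0.818 FPKM in LPS and 811 ± 90.3 FPKM in LPS-MIC-1, and Serpinh1 averaged 0.337 and 345 ± 35.8 FPKM. P4hb, a subunit of prolyl 4-hydroxylase and a general disulfide isomerase, averaged 818, 1571 and 371 FPKM in the order control, LPS and LPS-MIC-1, and Plod1, a collagen lysyl hydroxylase, 84.8, 52.6 and 37.6 FPKM.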

How the data were processed

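RNA-seq was performed by the authors on 18 libraries (3 per group). Per the labels and the study's methods, the authors used kallisto for pseudoalignment and tximport to reach gene level, and deposited the outcome as FPKM for each symbol in each library. The submitters' processing notes name the mm9 build. Read counts per library were not used here, since FPKM hold none, so no counting interval was given. The muscle table held 11 further columns without a name, 9 of them numeric per-sample columns, left out here because no label ties them to samples. The authors' 6 tables of their own DESeq2 comparisons (fold changes and p-values) were not used.

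Groups and replicate numbers were taken from the labels. In R 4.3.3, limma 3.58.1 was fitted to log2(FPKM + 0.1) of each experiment apart, with group means for 3 groups and eBayes with a trend, for genes with a mean FPKM over 1. Benjamini-Hochberg adjustment covered all tested genes of a comparison. Fitted differences of genes near 0 depend on the pseudocount. The fit was tried on values simulated on the log2 scale, which cannot show this dependence. Replicate numbers did not pair the samples (correlations of deviations from -0.0757 to 0.0823 over 18 pairs). Relative depth was read from steps between low FPKM values.

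All 40 members are named. In the lists of further matrix and collagen-processing genes, the called gene with the largest rise and that with the largest fall are named per comparison, and of the marker lists up to 3 abundant genes. Neighbouring genes were taken from a RefSeq gene table. The members, the lists and this rule were chosen with earlier results of these data known. Alternatives were pseudocounts of 1 and 0.01, no filter on the mean, a mean over 5, a replicate block, quantile normalization or median-ratio scaling of the values, a fit to only the 6 libraries compared, eBayes with no trend, and leaving out each library. The adjusted p alone was added after seeing the data. Python 3.11.15 with matplotlib 3.10.9 drew the plots.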

Additional observations from a re-analysis of the deposited data

Results flagged for a closer look

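Among the 21 matrix genes that passed the filter in both experiments, some had groups that did not overlap and lay in opposite directions in the libraries labelled C2C12 and in muscle, and the difference between the experiments was not tested. In LPS against control there were 3 of them (Col4a2, Col18a1 and Sparc), or 14.3%, all higher in C2C12 and lower in muscle. Of the 8422 genes that passed both filters, 15.1% lay in opposite directions in either way, and 7.20% in this one. Col4a2 and Sparc passed the C2C12 filter only through the LPS-MIC-1 libraries. Col4a2 averaged 0.00786 and 0.119 FPKM in C2C12 control and LPS. Sparc was not called in C2C12 (log2 difference 1.43, adjusted p = 0.208), where LPS replicate 3 had 1.73 FPKM beside 0.0482 and 0.0242 FPKM, and without that replicate the log2 difference was 0.18. In LPS-MIC-1 against LPS there were 15, beside 33.2% of those 8422 genes. Of the 15, 14 were higher in C2C12 and lower in muscle, beside 16.6% of the 8422 genes. Col1a1, Col3a1, Col6a1 and Fbn1 were among these 14, while Lamc1 went the other way. In LPS-MIC-1 against control there were 16, all higher in C2C12 and lower in muscle, beside 32.8% of the 8422 genes in either direction and 16.5% in this one. In both comparisons of LPS-MIC-1, 13 of the members counted passed the C2C12 filter only through the LPS-MIC-1 libraries, Col1a1, Col3a1, Col6a1 and Fbn1 among them, so their higher level there is a description and the count is no support. The C2C12 values carry the marker differences between libraries given above.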

How the results depend on the processing

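Of 2817 values for single members under the alternatives, 2768 kept their side of the threshold, 36 lost a call and 13 gained one. Of the called values 0 reversed, while 28 uncalled values changed sign. In C2C12, the 7 members higher in LPS against control became 1 with a pseudocount of 1. With a mean over 5 they became 4, since Col5a3, Col4a2 and Lox were then not tested. The 27 higher in LPS-MIC-1 against LPS became 16 with a mean over 5, as did the 28 against control. No member still tested at a mean over 5 lost its call. Against LPS, 1 member (Lamc1) was lower under quantile normalization, by adjusted p alone and without LPS-MIC-1 replicate 1 (0 to 1 over the left-out libraries), and against control 1 (Col15a1) was lower without the filter. In muscle, adjusted p alone gave 1 higher and 5 lower in LPS against control, 4 and 15 in LPS-MIC-1 against LPS, and 4 and 16 against control. Without the filter, 2 were higher against LPS and 1 against control, in both cases with Lox, and with a mean over 5, which tests fewer genes, 5 were lower in each. Leaving out libraries gave 8 to 10 lower in both muscle comparisons with LPS-MIC-1. Quantile normalization moved the median of all muscle genes to -0.12 against LPS and -0.11 against control, and changed the calls over all genes from 916 higher and 515 lower to 768 and 680 against LPS. The replicate block gave 5 members higher in C2C12 LPS against control, 26 in LPS-MIC-1 against LPS, and changed no other count of calls. In muscle LPS against control, where no member was called, 91 genes were higher and 94 lower at an unadjusted p under 0.05 with the same fold.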
